A study of Bos indicus with 9 samples.

Results

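Complement is a cascade of plasma and membrane proteins that marks targets for removal, and the genes examined here are those of its components and regulators outside C1q, namely C1R, C1S, SERPING1, C3, CFB, CFD, CFI, CD46 and CD55. Every probe set that the array's probe table assigns to 1 of the 9 symbols was taken, and this rule uses no measured value. The 9 genes themselves were chosen with earlier results of these data known. They make up 9 of 9135 genes and 13 of 23965 probe sets tested, and all 13 of their probe sets were tested. C3 has 3 probe sets, SERPING1 and CD46 have 2 each, and the other genes have 1 each.

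Signals came from corpora lutea, the glands that form from ovulated follicles and secrete progesterone, of 9 Nelore crossbred cows (Bos indicus) aged 2 to 5 years, with 1 Affymetrix array and total RNA of 1 cow per array. Every cow was synchronised with progesterone devices and estradiol benzoate, and every gland was taken at slaughter on day 6 after ovulation. The 3 superovulated cows were given 2000 IU of equine chorionic gonadotropin (eCG), a placental hormone of the mare that acts in cattle on the receptors of both gonadotropins, on day 4 of the synchronisation. The 3 stimulated cows were given 400 IU on day 8, and the 3 control cows were given no eCG. Dose and day of eCG differ together and cannot be told apart. The labels used here do not say which of a superovulated cow's corpora lutea was sampled, or whether several were combined.

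In the classical pathway C1q binds antibody or an altered surface, and the serine proteases C1r and C1s, carried in the same complex, are then activated and go on to cleave the next components. C3 is the protein on which all activation routes converge, and in the alternative pathway factor D (CFD) cleaves factor B (CFB) bound to C3b, which gives an enzyme that cleaves more C3. The cascade is held in check by C1 inhibitor (SERPING1), by the protease factor I (CFI) with cofactors such as CD46, and by CD55, which takes the C3-cleaving enzymes apart. Much of the circulating protein is made by the liver, while macrophages and connective tissue cells make several components locally.

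The glands carried their defining transcripts at an even level. The mean log2 signal of 7 of 7 steroidogenic markers, STAR, FDX1 and HSD3B1 among them, lay between 13.04 and 13.17 in superovulated, between 13.04 and 13.19 in stimulated and between 12.97 and 13.28 in control glands. Correlations between arrays across probe sets were 0.988 to 0.994 within groups and 0.986 to 0.994 between groups. Superovulated replicate 2 stood apart from the other 8 arrays in the keratin genes KRT18 (8.79 against 4.46 to 5.77) and KRT19 (5.03 against 2.39 to 2.61). The keratin genes KRT8 (2.12 against 1.76 to 2.03) and KRT7 (2.81 against 2.41 to 2.78) were dim and only slightly higher on this array. For C1R, C1S, C3, CFB and CD46 values without this array are also given. As a sign of RNA quality, the log2 difference between 3' and 5' control probe sets was taken for 6 transcripts, and an exact permutation test, 2-sided, was run for each (3 against 3 cannot go below p = 0.1). The tests at that smallest p were those of GST, eIF-4E and cyclophilin in superovulated against control glands (larger by 0.34, 0.15 and 0.11), of cyclophilin and GAPDH in stimulated against control glands (larger by 0.13 and 0.04), and of GST in superovulated against stimulated glands (larger by 0.35). Superovulated replicate 2 lay outside the other 8 arrays for actin (-0.64 against -0.53 to -0.21) and eIF-4E (3.04 against 2.68 to 2.97). The part of RNA quality in the values below was not tested.

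None of the 13 probe sets passed the limma test (adjusted p under 0.05) in any comparison. The biggest differences between group means belonged to C1R and C1S, which had their highest means in stimulated glands, and to C3, whose difference came from 1 superovulated cow. CD46 and CD55, the regulators on the cell membrane, had group means that differed by at most 0.35 log2 units for any probe set. The plot of signal by cow shows every value.

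**Figure D1:**
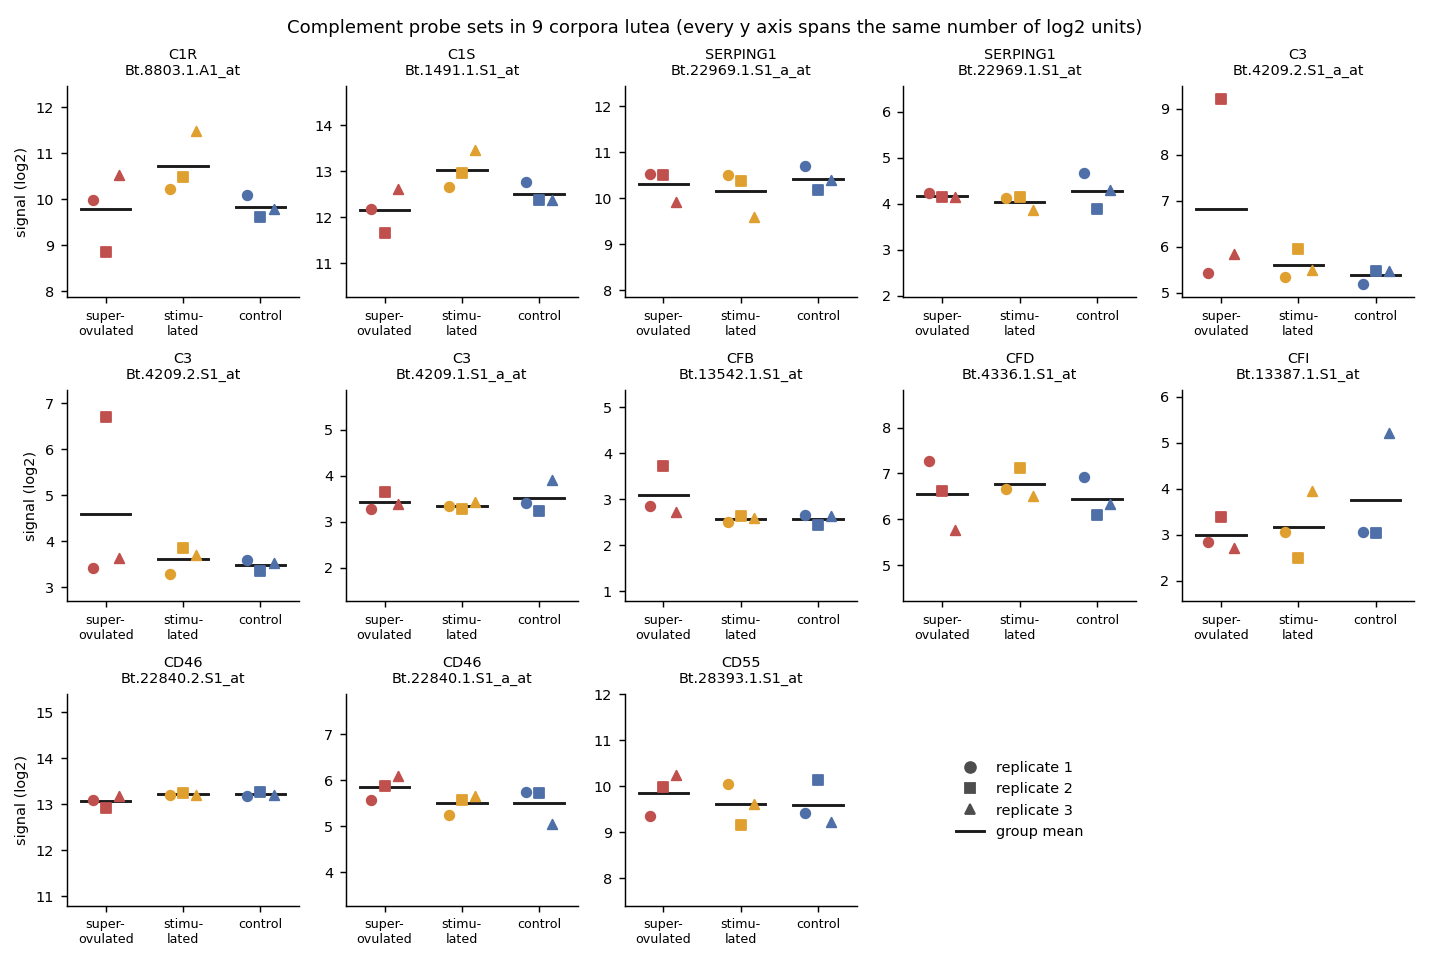
Log2 signal (y axis, the same span in every panel) of the 13 complement probe sets in superovulated, stimulated and control corpora lutea (x axis). Each point is 1 cow, its shape gives the replicate number and the bar is the mean of 3 cows; superovulated replicate 2 stands at 9.21 and 6.70 for C3 probe sets that do not exceed 5.95 and 3.86 in any other cow.

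C1R encodes the protease that activates C1s. Its signal was 9.99, 8.86 and 10.52 in superovulated cows, 10.23, 10.48 and 11.48 in stimulated cows, and 10.10, 9.63 and 9.80 in control cows. All 3 stimulated cows lay above all 3 control cows, whereas superovulated cows spread to both sides of the controls. The mean was 10.73 ± 0.66 in stimulated glands, against 9.84 ± 0.24 in control glands (SD, n = 3 each), a log2 fold change of 0.89 (SE 0.46, limma adjusted p = 0.821) whose 95% interval ran from -0.18 to 1.95. Without stimulated replicate 3, the highest of the 9 cows, it was 0.51. In superovulated glands the mean was 9.79 ± 0.85 (SD, n = 3), with a log2 fold change of -0.05 against control (SE 0.46, limma adjusted p = 0.994) and of -0.94 against stimulated (SE 0.46, limma adjusted p = 0.568). Without superovulated replicate 2, the lowest of the 9 cows, these values were 0.42 and -0.47.

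C1S encodes the protease that cleaves C4 and C2. Superovulated cows had signals of 12.18, 11.66 and 12.63, stimulated cows 12.65, 12.97 and 13.46, and control cows 12.77, 12.38 and 12.37. The stimulated values lay above the superovulated ones without overlap, though narrowly, and control cows overlapped both groups. C1S had the smallest p among the probe sets examined, in superovulated against stimulated glands, with means of 12.16 ± 0.48 and 13.03 ± 0.41 (SD, n = 3 each) and a log2 fold change of -0.87 (SE 0.28, 95% interval -1.53 to -0.22, limma unadjusted p = 0.0154, adjusted p = 0.444). Without superovulated replicate 2 the difference was -0.63 (limma adjusted p = 0.637). The deposited numbers lack their decimal mark, and for C1S all 9 allow 2 places for it. The brighter reading was taken, with a within-group SD of 0.39, whereas the other reading would have an SD of 0.039 and differences of the same sign but 10 times smaller. Stimulated against control glands differed by 0.52 (SE 0.28, limma adjusted p = 0.834), and by 0.31 without stimulated replicate 3. Superovulated against control glands differed by -0.35 (SE 0.28, limma adjusted p = 0.875), and by -0.10 without superovulated replicate 2.

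C1R and C1S followed each other from cow to cow. Stimulated replicate 3 had the highest and superovulated replicate 2 the lowest signal of both genes. Pearson's r of the log2 signals was 0.94 over the 9 arrays, 0.97 after group means were subtracted and 0.90 without superovulated replicate 2, and Spearman's rho was 0.82. The arrays share a platform and a normalisation, so these are descriptions and carry no test. Both genes lie next to each other on chromosome 5 of assembly NIAB-ARS_B.indTharparkar_mat_pri_1.0, a zebu genome annotated by RefSeq. CFB stands next to C2 on chromosome 23 there, and none of the other genes has a neighbour there that carries a complement gene's symbol.

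C1q is made by the genes C1QA, C1QB and C1QC, which are classical macrophage markers, and their correlations with C1R and C1S were lower. The mean log2 signal of the C1q genes was 6.83 to 8.07 in superovulated cows, 8.15 to 9.09 in stimulated cows, and 5.86 to 7.58 in control cows. Stimulated cows gave the highest values of this mean, though only just above the superovulated cows (8.15 against 8.07). Stimulated cows lay above all control cows for C1QA, C1QB and C1QC, beside 5.79% of all probe sets. They lay above all superovulated cows for C1QB and C1QC, where 6.89% of all probe sets did so. For C1QA these groups overlapped, with 10.40 in stimulated replicate 1 and 10.82 in superovulated replicate 2. Log2 fold changes of stimulated against control glands were 1.49 for C1QA, 2.11 for C1QB and 1.79 for C1QC (limma adjusted p = 0.728, 0.646 and 0.530). Across the 9 arrays r with C1QA, C1QB and C1QC was 0.27, 0.47 and 0.40 for C1R, and 0.33, 0.55 and 0.47 for C1S. Superovulated replicate 2 was lowest for C1R and C1S and was not low for C1q, and without it the same values were 0.61, 0.71 and 0.59 for C1R and 0.70, 0.82 and 0.70 for C1S. The plot of C1R against its partners shows this cow at the foot of both panels.

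**Figure D2:**
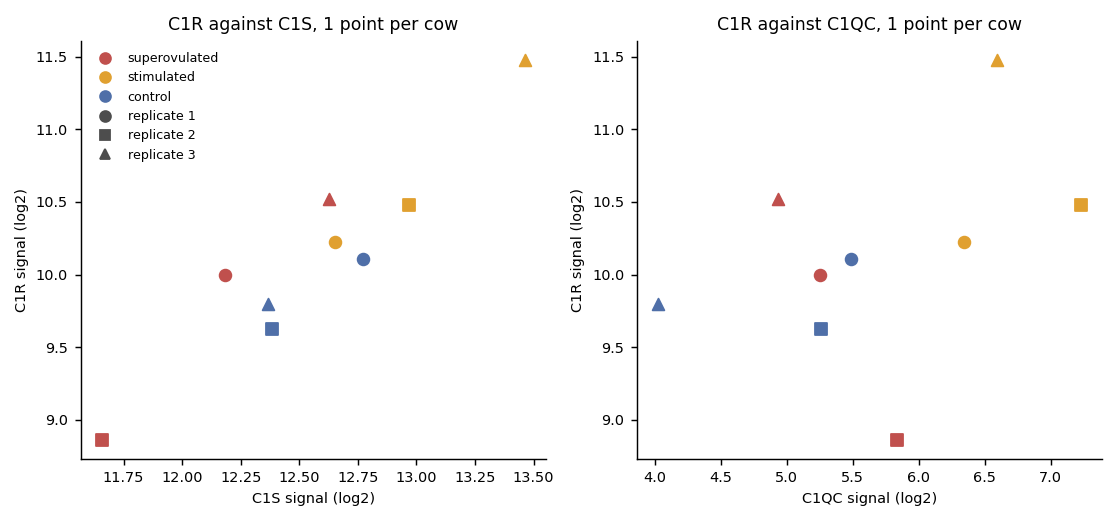
Log2 signal of C1R (y axis) against log2 signal of C1S (left) and C1QC (right) on the x axis, 1 point per cow, with colour for the group and shape for the replicate. C1R and C1S lie along 1 line (r = 0.94), while superovulated replicate 2 has the lowest C1R (8.86) at a middling C1QC (5.83).

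Marker means of other cell types had their own pattern over the groups. The mean signal of 16 of 20 macrophage and myeloid markers, the C1q genes included, was 6.21 to 7.26 in superovulated, 6.43 to 7.50 in stimulated and 4.90 to 6.06 in control glands. For 8 of 11 neutrophil markers, S100A8 and S100A9 among them, it was 5.17 to 5.62 in superovulated, 4.04 to 4.49 in stimulated and 4.97 to 5.66 in control glands. Interferon-stimulated genes, 37 of 55 on the array, averaged 6.60 to 7.12 in superovulated, 7.18 to 7.68 in stimulated and 6.47 to 7.05 in control glands. Correlation with the neutrophil mean over the 9 arrays was -0.79 for C1R and -0.84 for C1S, the most negative among 12 genes and lists set against each. Both were also lower where the mean of 12 fibroblast and pericyte markers was higher (r = -0.70 and -0.68, and -0.44 and -0.40 without superovulated replicate 2). The same held for the mean of 10 surface epithelium and oviduct markers (r = -0.68 for C1R and -0.70 for C1S, and -0.23 and -0.31 without that cow). For endothelial markers r with C1R and C1S was -0.16 and -0.14 (-0.02 and 0.007 without that cow). For blood markers it was -0.23 and -0.13 (-0.31 and -0.17 without that cow). The remaining list means had a positive r with C1R and C1S. For T and NK cell markers it was 0.25 and 0.26 (0.31 and 0.32 without that cow). It was 0.55 and 0.50 for interferon-stimulated genes (0.45 and 0.37 without that cow). For steroidogenic markers it was 0.52 and 0.49 (0.45 and 0.40 without that cow). For macrophage and myeloid markers it was 0.13 and 0.12, and 0.61 and 0.60 without that cow. No marker is at 0 on this scale, and the part of these cells in the C1R and C1S values was not tested. In RNA of a whole gland, fewer cells of a type and less RNA per cell cannot be told apart.

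SERPING1 encodes C1 inhibitor, the serpin that inactivates C1r and C1s. Its brighter probe set read 10.53, 10.51 and 9.91 in superovulated cows, 10.50, 10.38 and 9.59 in stimulated cows, and 10.71, 10.18 and 10.39 in control cows. The groups overlapped throughout, and stimulated replicate 3, highest for C1R and C1S, was lowest here. Log2 fold changes were -0.11 for superovulated against control (SE 0.28, limma adjusted p = 0.971), -0.27 for stimulated against control (adjusted p = 0.904) and 0.16 for superovulated against stimulated (adjusted p = 0.881). The dimmer probe set read 3.87 to 4.66 over all cows and gave differences of the same sign, -0.11, -0.24 and 0.13. Across the 9 arrays SERPING1 and C1R had r of -0.67 (-0.71 without superovulated replicate 2).

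C3 is the central component of the cascade, and its signal was high in 1 cow. The brightest of its 3 probe sets read 5.43, 9.21 and 5.85 in superovulated cows, 5.34, 5.95 and 5.48 in stimulated cows, and 5.19, 5.46 and 5.48 in control cows. Superovulated replicate 2 stood 3.26 log2 units above the next highest cow, and the other superovulated cows lay inside the range of the stimulated and control cows. Of the 9135 genes, C3 was the 1 gene for which this array exceeded the next highest by that much. Group means were 6.83 ± 2.07 in superovulated, 5.59 ± 0.32 in stimulated and 5.37 ± 0.16 in control glands (SD, n = 3 each). The log2 fold change of superovulated against control glands was 1.45 (SE 0.87, 95% interval -0.56 to 3.47, limma adjusted p = 0.848), and 0.26 without superovulated replicate 2 (limma adjusted p = 0.944). Against stimulated glands the values were 1.24 with that cow and 0.05 without it. Stimulated against control glands differed by 0.22 (SE 0.87, limma adjusted p = 0.981).

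The second C3 probe set had the same shape, with 3.42, 6.70 and 3.64 in superovulated cows against 3.28 to 3.86 in stimulated and 3.36 to 3.59 in control cows. Its log2 fold change of superovulated against control glands was 1.09, and 0.036 without superovulated replicate 2. The remaining one was dim in every cow (3.23 to 3.91) and did not show the high value, with 3.65 in superovulated replicate 2 and its maximum in control replicate 3. Across arrays the brighter probe sets had r of 0.99, which was 0.65 without superovulated replicate 2. The dim one had r of 0.34 and 0.38 with them. The C3 probe sets therefore disagreed on superovulated replicate 2.

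Factor B, encoded by CFB, joins C3b in the alternative pathway convertase. Its signal was low on this array, with 26.1% of probe sets having a lower mean, which limits the size of a difference that the array can show. Superovulated cows read 2.86, 3.73 and 2.72, stimulated cows 2.51, 2.65 and 2.59, and control cows 2.66, 2.44 and 2.65. All 3 superovulated cows lay above the 6 others, superovulated replicate 3 only just (2.72 against 2.66 in control replicate 1). Superovulated replicate 2 was again well above the rest. The log2 fold change was 0.52 against control (SE 0.24, limma adjusted p = 0.809) and 0.52 against stimulated (SE 0.24, limma adjusted p = 0.542), while stimulated and control glands differed by -0.00. Without superovulated replicate 2 the first of these values was 0.21 (limma adjusted p = 0.928) and the second also 0.21. C3 and CFB had r of 0.94 over the 9 arrays, with a Spearman's rho of 0.33, and r of 0.18 without superovulated replicate 2. C2, the paralogue of CFB beside it in the gene table, had log2 fold changes of 0.08 in superovulated against control, -0.01 in stimulated against control and 0.09 in superovulated against stimulated glands.

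Other genes also had their highest value in that cow. By Pearson's r over the 9 arrays the 5 genes most like C3 outside complement were KCNE1, CXCL2, ABCA4, CXCL8 and KLF5, each with r of 0.98. CXCL8 and CXCL2 encode chemokines that attract neutrophils. CXCL8 read 6.52 in superovulated replicate 2 and 2.42 to 3.61 in the other 8 cows, and CXCL2 read 5.43 against 1.93 to 2.67. KLF5, a transcription factor of epithelial and smooth muscle cells, read 5.84 against 3.10 to 3.41. ABCA4 read 3.56 against 2.66 to 2.90 and KCNE1 read 3.07 against 2.71 to 2.81. Both were dim and rose far less in that cow than C3 did. Without that cow r with C3 was 0.83 for ABCA4, 0.77 for KCNE1, 0.64 for CXCL8, 0.49 for CXCL2 and 0.07 for KLF5.

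**Figure D3:**
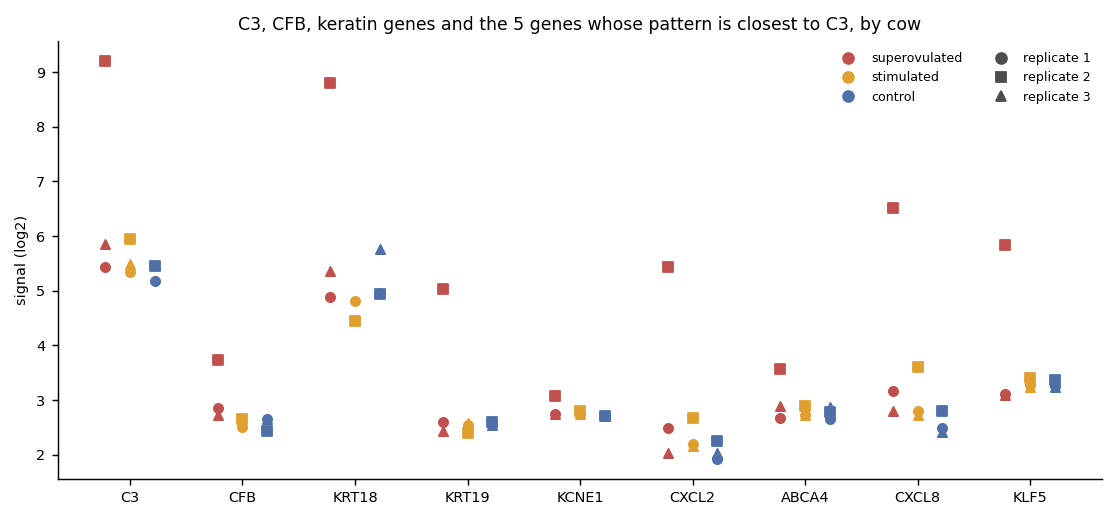
Log2 signal (y axis) of C3, CFB, the keratin genes KRT18 and KRT19 and the 5 genes with the pattern most like C3 (x axis), 1 point per cow, with colour for the group and shape for the replicate. Superovulated replicate 2 is the highest point for every gene shown, and for C3 it stands at 9.21 against 5.19 to 5.95 in the other 8 cows.

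The same array had the highest mean of the surface epithelium and oviduct markers, 10 of 11 of which were on the array, at 3.67 against 2.92 to 3.11 elsewhere. Of these markers 5 were highest there, by far KRT18 and KRT19. CDH1 (4.18), EPCAM (2.50), OVGP1 (2.97), MUC1 (3.06) and CLDN3 (1.99) lay within the range of the other cows. Fibroblast and pericyte markers were also highest there, 10 of 12 genes singly and the list mean at 11.60 against 10.42 to 11.20. Over all genes, 15.7% had their highest value on this array, against 8.01% to 16.1% on the others. The part of these cells in the C3 and CFB values was not tested.

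CFD encodes factor D, the protease that cleaves factor B and is abundant in fat cells. Its signal was 7.27, 6.63 and 5.77 in superovulated cows, 6.67, 7.11 and 6.51 in stimulated cows, and 6.93, 6.10 and 6.34 in control cows. The superovulated cows alone ran from 5.77 to 7.27 and covered the range of both other groups. The log2 fold changes were 0.10 for superovulated against control (SE 0.38, limma adjusted p = 0.982), 0.31 for stimulated against control (adjusted p = 0.921) and -0.21 for superovulated against stimulated (adjusted p = 0.890). The high C3 cow did not stand out for CFD, and r between C3 and CFD was -0.01.

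CFI encodes factor I, the protease that cuts C3b and C4b into inactive pieces. Superovulated cows read 2.84, 3.39 and 2.72, stimulated cows 3.06, 2.49 and 3.95, and control cows 3.06, 3.03 and 5.20. Control replicate 3 stood above the other 8 cows, which lay between 2.49 and 3.95. The log2 fold changes were -0.78 for superovulated against control (SE 0.62, limma adjusted p = 0.875), -0.60 for stimulated against control (adjusted p = 0.905) and -0.18 for superovulated against stimulated (adjusted p = 0.947). Without control replicate 3 the first was -0.06 and the second 0.12, so both differences from control rested on that cow.

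CD46 encodes a membrane cofactor for factor I, found on nearly all nucleated cells. Its brighter probe set read 13.09, 12.92 and 13.17 in superovulated cows, 13.20, 13.24 and 13.20 in stimulated cows, and 13.18, 13.27 and 13.20 in control cows. The superovulated cows lay below the 6 others without overlap, superovulated replicate 3 only just. Means were 13.06 ± 0.13 in superovulated, 13.21 ± 0.03 in stimulated and 13.21 ± 0.05 in control glands (SD, n = 3 each). The log2 fold change was -0.15 against control (SE 0.08, limma adjusted p = 0.817) and -0.15 against stimulated (limma adjusted p = 0.577), and stimulated against control glands had -0.00 with a 95% interval of -0.18 to 0.18. Without superovulated replicate 2, the lowest of the 9 cows, the differences of superovulated glands were -0.083 against control and -0.081 against stimulated. The interval of stimulated against control glands was the narrowest of the 13 probe sets. As with C1S, the decimal mark of all 9 values could stand in either of 2 places, and the within-group SD is 0.08 as read here and 0.0081 in the other reading. The dimmer probe set pointed the other way for superovulated glands, with 5.57, 5.88 and 6.09 against 5.74, 5.72 and 5.06 in control cows (log2 fold change 0.34, SE 0.22, limma adjusted p = 0.857), so the probe sets of CD46 disagreed in sign.

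CD55 encodes decay-accelerating factor. It read 9.36, 9.98 and 10.24 in superovulated cows, 10.05, 9.16 and 9.61 in stimulated cows, and 9.42, 10.14 and 9.22 in control cows. Each group covered about the same range, 0.88 in superovulated, 0.88 in stimulated and 0.92 in control glands. The log2 fold changes were 0.27 for superovulated against control (SE 0.33, limma adjusted p = 0.924), 0.01 for stimulated against control (95% interval -0.76 to 0.78) and 0.26 for superovulated against stimulated (adjusted p = 0.837).

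**Figure D4:**
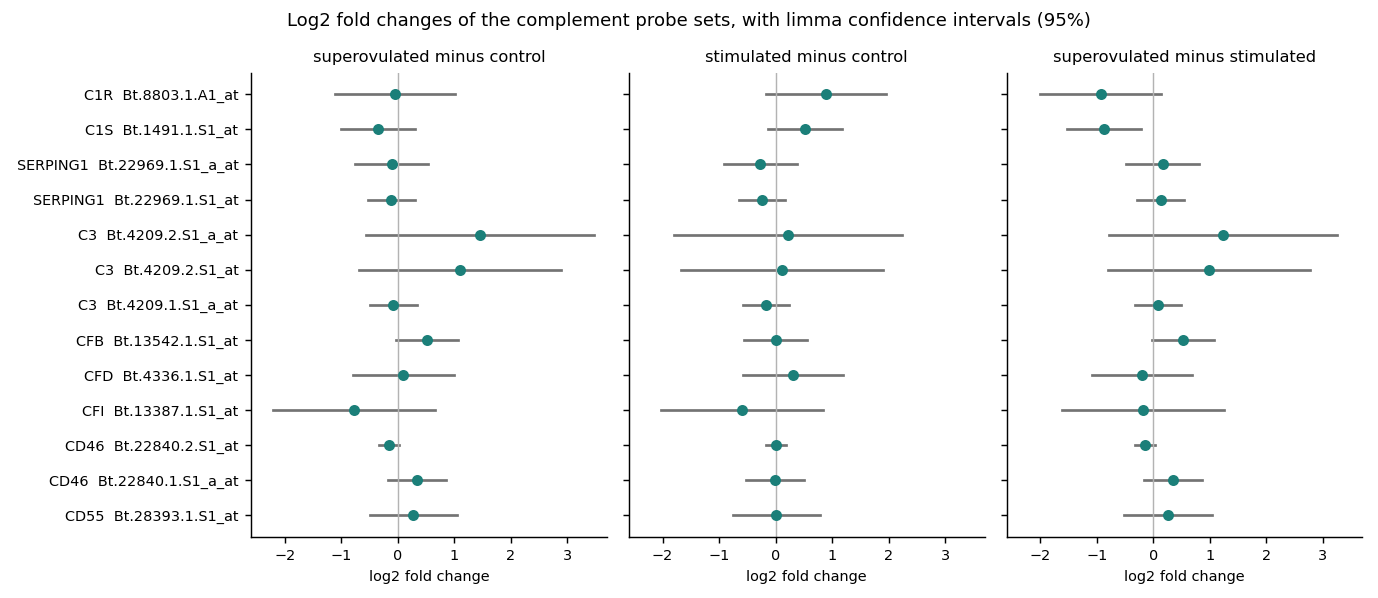
Log2 fold change (x axis) of the 13 complement probe sets (rows) for superovulated minus control, stimulated minus control and superovulated minus stimulated glands, with dots for the limma estimate from 3 cows per group and bars for the 95% interval. All bars cross 0 except that of C1S in the right panel (-1.53 to -0.22), and those of the brighter C3 probe sets are the widest.

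In counts, 0 of 13 probe sets passed in superovulated against control glands, where 0% of all probe sets did, and 0 of 13 in stimulated against control and in superovulated against stimulated glands, where 0.00417% did in each (limma). At an unadjusted p under 0.05 the counts were 0 of 13 for superovulated against control, beside 6.2% of all probe sets, 0 of 13 for stimulated against control, beside 6.4%, and 1 of 13 for superovulated against stimulated, beside 9.66%. The moderated F test over the 3 groups gave 0 of 13, beside 0.00417% of all probe sets, and at an unadjusted p under 0.05 it gave 1 of 13 (C1S), beside 7.69%.

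Superovulated and control cows had no common range for 2 of 13 probe sets, beside 10.9% of the whole array. CFB was higher in superovulated cows, as were 5.18% of all probe sets, and the brighter CD46 probe set was lower, as were 5.7%. Stimulated and control cows had no common range for 1 of 13, that of C1R, beside 11.5%, made up of 5.79% higher and 5.71% lower in stimulated cows. Between superovulated and stimulated cows the count was 3 of 13, beside 13.5%, with CFB higher in superovulated cows (6.64% of all probe sets) and C1S and CD46 lower (6.89%). Since 1 of 13 is already 7.69%, these counts lie within 1 or 2 probe sets of the share over the whole array.

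Taking the brightest probe set of each gene, 4 of 9 genes had a positive log2 fold change in superovulated against control glands, with a median of -0.05, beside 53.3% and a median of 0.01 over all genes. For stimulated against control glands it was 5 of 9 with a median of 0.01, beside 49.1% and -0.00. For superovulated against stimulated glands it was 4 of 9 with a median of -0.15, beside 53.2% and 0.01. The 2 comparisons with control share the control cows. Of the 36 pairs of these genes, 12 had a positive r over the 9 arrays and 5 had r above 0.5, with a median r of -0.09. The lowest r of the 36 pairs was that of CFB and CD46, -0.96, and -0.84 without superovulated replicate 2. It was taken with the brighter CD46 probe set, which had r of -0.30 with the dimmer one, and CFB was dim. The genes outside complement whose signal was most like the mean standardised signal of the 9 genes were PUDP, RRAGC, STRN3, FREM1 and ATP2A2, with r of 0.87 to 0.92 over 9 arrays.

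The rest of the cascade was read from a list of 48 further complement genes, 29 of which are on the array with a single symbol, and 0 of 29 passed in any limma comparison. At an unadjusted limma p under 0.05, 0 were higher and 2 lower in superovulated against control glands, where 3.13% of all genes (1 probe set each) were higher and 2.13% lower. For stimulated against control glands it was 1 higher and 1 lower, beside 4.2% and 3.04%, and for superovulated against stimulated glands 1 higher and 1 lower, beside 4.88% and 4.19%. C7, a component of the membrane attack complex, was among them, with 10.39, 9.58 and 10.53 in superovulated cows, 10.40, 10.93 and 9.49 in stimulated cows, and 11.38, 11.28 and 10.68 in control cows. Superovulated cows lay below all control cows for C7, with a log2 fold change of -0.95 (SE 0.40, limma adjusted p = 0.803), and stimulated cows overlapped them, with -0.84 (SE 0.40, limma adjusted p = 0.789). C6, which precedes C7 in that complex, had -0.92 in superovulated against control glands (SE 0.35, limma adjusted p = 0.801). C8B, a chain of C8, had 0.88 in superovulated against stimulated glands (SE 0.20, limma adjusted p = 0.336) and -0.48 in stimulated against control glands. MASP2, the lectin pathway's counterpart of C1s, had -0.49 in superovulated against stimulated glands (SE 0.18, limma adjusted p = 0.468). VSIG4, a complement receptor of tissue macrophages, had 1.597 in stimulated against control glands (SE 0.58, limma adjusted p = 0.728). Mean signals over the 9 cows were 4.24 for C6, 3.96 for C8B, 3.68 for MASP2 and 4.46 for VSIG4. These lie near or below the middle of the array, whereas C7 had 10.52.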

How the data were processed

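Luteal RNA of 9 cows was measured on 1 Affymetrix bovine array each, in 3 groups of 3 named in the labels as biological replicates. The deposited values are in no standard unit, a kind classed as other, because each number has lost its decimal mark. The mark was restored from the values themselves given that a scanned log2 signal cannot exceed 16. Of all cells 15.5% allowed 2 readings. In 19509 of 24128 probe sets no cell did, in 1563 the other arrays settled it, and 3003 probe sets with 9 open cells were read as bright by their spread at a posterior of 0.95, while 53 undecided ones were left out. After removal of 112 array controls 23965 probe sets were tested. Because of that limit no restored value could reach 16, so the restored range, 0.85 to 15.68, gives no evidence of the scale. That the values are log2 signals was assumed. How the authors summarised and normalised the probes, and the log base, is not stated in the labels. No further normalisation was applied to the arrays, whose medians were 4.19 to 4.26.

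Genes were named from the platform's probe table, in which 13256 tested probe sets have 1 symbol, 85 several and 10624 none. All 9 symbols also stand in the RefSeq table of assembly NIAB-ARS_B.indTharparkar_mat_pri_1.0, used for names and gene order alone. The probe set with the highest mean stands for a gene in counts over genes.

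limma 3.58.1 in R 4.3.3 (lmFit, eBayes) was fitted on all 9 arrays with 6 residual degrees of freedom. Its p-values, computed here from the deposited values, are 2-sided and adjusted by Benjamini-Hochberg over all 23965 probe sets, with a threshold of 0.05. The steps were tested on simulated data. The number of arrays limits the precision. Lists were described by counts and medians.

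The genes examined and all lists were chosen with earlier results of these data known. All 9 are named, with the other complement genes at an unadjusted p under 0.05 (at most 8), the 5 genes most like C3 and most like the mean of the 9, and up to 3 markers of a list with the highest mean. KRT19, KRT8, KRT7, EPCAM, OVGP1, CLDN3 and C2 were named after their values were seen.

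Replicate numbers recur in the 3 groups, and the labels do not say that they pair animals. Deviations of same-numbered arrays from their group means correlated at 0.08, 0.35 and 0.15 in superovulated and control glands, at 0.15, 0.28 and -0.04 in stimulated and control glands, and at 0.20, 0.38 and 0.16 in superovulated and stimulated glands. Only the last set exceeds 0.1 for every pair, and there the block left the count of passing probe sets at 1. Alternatives were quantile normalisation, a filter on dim probe sets, probe sets without open readings, the replicate block, fits of 2 groups alone, an intensity trend with robust eBayes, the mean of all probe sets of a gene and leaving out each array.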

Additional observations from a re-analysis of the deposited data

How the results depend on the processing

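Of 39 log2 fold changes (13 probe sets in 3 comparisons) recomputed under the alternatives, 0 passed the threshold in any setting, with a lowest limma adjusted p of 0.331, and 35 of 576 recomputed values had the opposite sign. The cause was not tested. Under quantile normalisation the log2 fold change of stimulated against control glands was 0.011 for CFB, 0.015 for CD46 (brighter probe set) and -0.016 for CD55. With the mean of all probe sets of a gene, CD46 had 0.092 in superovulated against control and 0.097 in superovulated against stimulated glands.

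Leaving out 1 array at a time changed the sign of some differences. In superovulated against control glands the values ran from -0.41 to 0.42 for C1R, -0.23 to 0.095 for SERPING1 (brighter probe set), -0.31 to 0.074 for SERPING1 (dimmer probe set), -0.23 to 0.12 for C3 (dimmest probe set) and -0.26 to 0.49 for CFD. In stimulated against control glands they ran from -0.44 to 0.014 for SERPING1 (brighter probe set), -0.0059 to 0.28 for C3 (second probe set), -0.31 to 0.031 for C3 (dimmest probe set), -0.074 to 0.039 for CFB, -0.99 to 0.12 for CFI, -0.020 to 0.026 for CD46 (brighter probe set), -0.23 to 0.11 for CD46 (dimmer probe set) and -0.21 to 0.28 for CD55. In superovulated against stimulated glands they ran from -0.12 to 0.36 for SERPING1 (brighter probe set), -0.081 to 1.56 for C3 (second probe set), -0.024 to 0.17 for C3 (dimmest probe set), -0.56 to 0.19 for CFD and -0.52 to 0.21 for CFI.

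The number of probe sets passing over the whole array was 1 in place of 0 for superovulated against control glands when only these groups were fitted, and 0 to 1 when an array was left out (1 without stimulated replicate 3). For stimulated against control glands it was 3 in place of 1 with the replicate number as a block, and 0 to 2 when an array was left out (0 without stimulated replicate 3, 2 without control replicate 2 or superovulated replicate 3). For superovulated against stimulated glands it was 2 in place of 1 under quantile normalisation, 2 among probe sets without open readings, and 1 to 3 when an array was left out (3 without superovulated replicate 1, 2 without stimulated replicate 3 or superovulated replicate 3). The F test gave 1 to 2 (2 without stimulated replicate 3 or superovulated replicate 3). The block changed no call among the 13 complement probe sets.

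The median log2 fold change of the 9 genes was 0.31 for superovulated against control glands over the 4 genes whose representative probe set is among those without open readings, where fewer genes count, and 0.17 for superovulated against stimulated glands. With the mean of all probe sets of a gene this comparison gave 0.097, and without 1 array -0.16 to 0.068 (0.068 without superovulated replicate 3). Medians over 9 genes rest on few values, and 3 cows per group leave intervals that include differences of both signs for all but C1S in superovulated against stimulated glands.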
